A study of Bos taurus with 6 samples.

Results

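The ABC transporters are membrane and ribosome-bound proteins that share an ATP-binding cassette, and 36 of their genes were followed here in the blood of fat-1 transgenic and wild type cattle. Members were the array probes whose gene name, or whose bracketed symbol in the probe description, was ABC followed by a letter from A to G and a number. The rule found 73 of the 43621 probes used, or 36 of 17246 named genes, and each gene was represented by its probe with the highest mean log2 intensity over the 6 arrays, with its other probes beside it. The choice of members used no difference between the groups. Of the 73 probes, 71 carried the same symbol in RefSeq, and 2 were named from the description alone. A probe for ABCB1 was not found by the rule.

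Blood was drawn from the jugular vein of 6 female cattle, and 1 array was made per animal. Animals called fat-1 (n = 3) carried a transgene of that name, and the wild type animals (n = 3) served as controls. In the worm Caenorhabditis elegans, from which fat-1 is known, its product is a desaturase that makes omega-3 from omega-6 polyunsaturated fatty acids. The labels do not give the promoter of the transgene or cell counts, and fat-1 replicate 1 was 3.5 years old against 3 years for the other 5 animals. All fat-1 arrays came from slide 1 and scan 1 and all wild type arrays from slide 2 and scan 2, and a slide effect and a group effect therefore cannot be told apart.

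ABC transporters use the energy of ATP to move lipids, sterols, haem precursors, conjugated metabolites and drugs across membranes. The ABCA and ABCG subfamilies include the pumps that load cholesterol and phospholipid onto lipoproteins. The ABCC subfamily includes exporters of eicosanoids and glutathione conjugates from blood cells, and the ABCD subfamily includes carriers of fatty acyl-CoA into peroxisomes. The ABCE and ABCF proteins have the cassette but cross no membrane and act on ribosomes.

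Levels below are log2 processed intensity minus the 75th percentile of the same array, so that a level of 0 is the signal of a probe at that percentile. The scanner software flags each spot that is well above background, and probes with this flag in 3 or more of the 6 animals were tested. Of the 36 genes, 26 were tested and 23 were well above background on all 6 arrays. The filter kept 63.0% of the ABC probes and 61.5% of all probes. ABCA1 and ABCG2 passed narrowly, with 3 arrays each, and ABCA4 lay just outside with 2. The other 9 genes were well above background on no array: ABCA9 and ABCA13, ABCB9 and the bile salt pump ABCB11, the organic anion pump ABCC2, ABCC9, the peroxisomal transporter ABCD2, and the sterol pumps ABCG5 and ABCG8. Of these, 6 held the scanner software's surrogate value on all 6 arrays. No ABC spot was saturated.

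**Figure D1:**
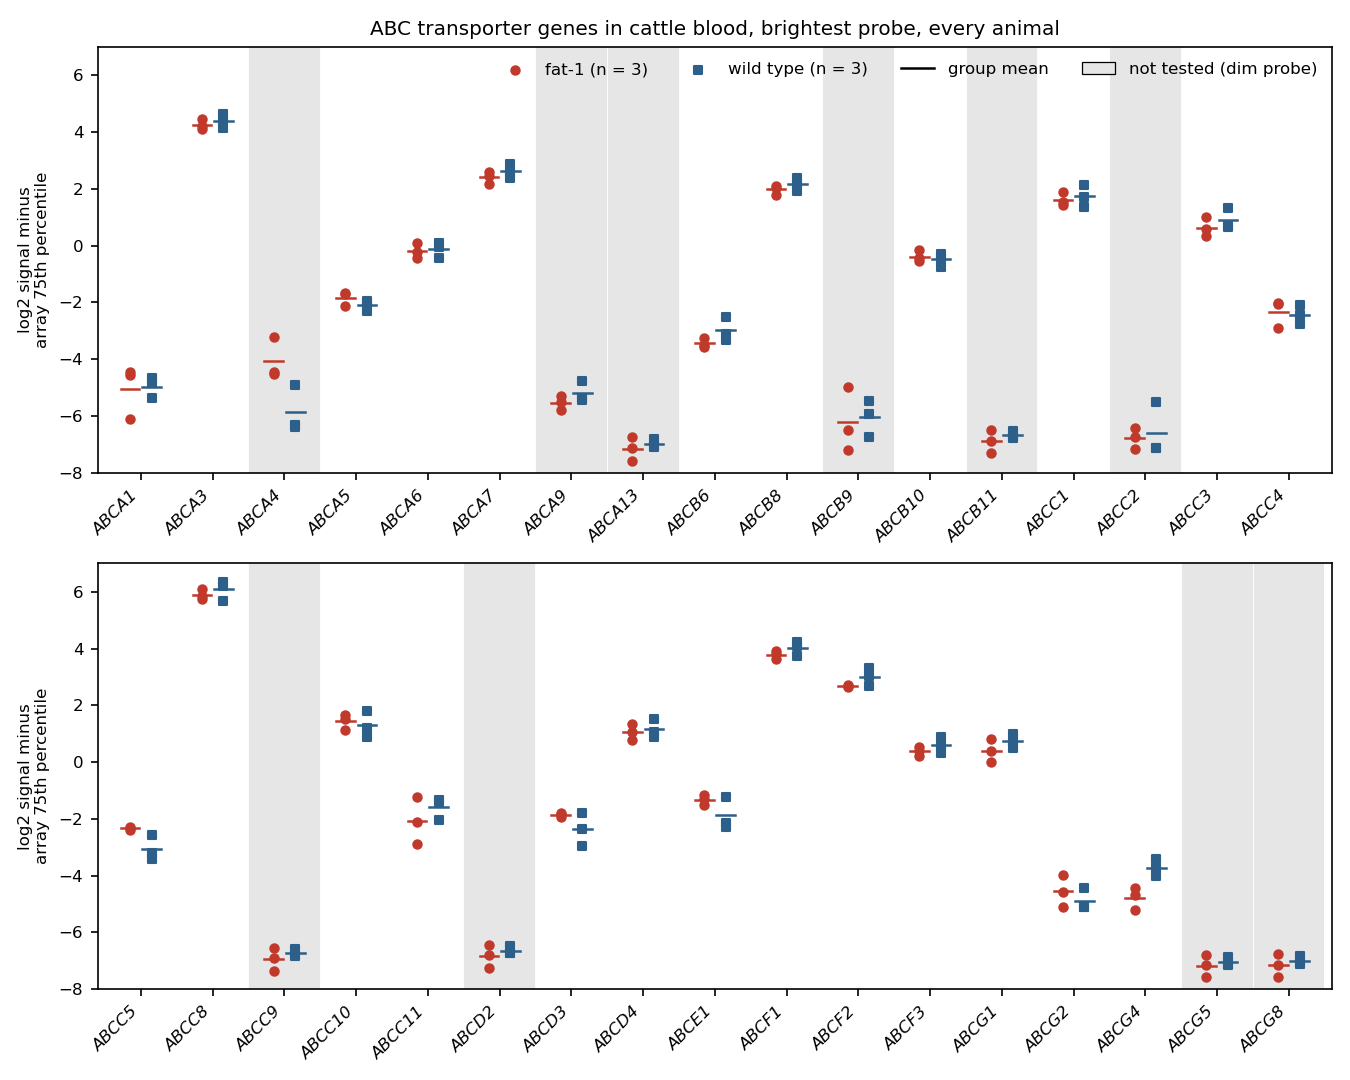
Level of 34 of the 36 ABC transporter genes in every animal, as log2 processed intensity minus the array's 75th percentile, with fat-1 animals as red circles, wild type animals as blue squares and group means as lines. Grey bands mark the 10 genes whose probe was too dim to be tested, and in ABCG4 and ABCC5, among the 24 tested genes shown, the 3 fat-1 and the 3 wild type animals do not overlap.

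No ABC transporter gene differed between fat-1 and wild type animals after adjustment over all probes. In limma's moderated test with Benjamini-Hochberg adjustment over 26826 probes, 0 of 26 genes had an adjusted p under 0.05, against 0.171% of all probes tested, and the lowest adjusted p was 0.215. At an unadjusted p under 0.05 there were 2 of 26, ABCG4 lower and ABCC5 higher in fat-1, against 12.8% of all probes tested. Counted by direction, the 1 higher gene stands beside a background of 6.11% and the 1 lower gene beside 6.71%. The groups did not overlap in the same 2 genes, 1 higher and 1 lower, against 19.6% of all probes, of which 6.89% were higher and 12.7% lower. Among the brightest probes of 11425 named genes, chosen as for the ABC genes, 0.193% had an adjusted p under 0.05. An unadjusted p under 0.05 was found for 12.2% of those, 5.65% higher and 6.52% lower, and groups without overlap for 20.5%, 7.23% higher and 13.3% lower. With 2 of 26 genes, or 7.69%, the family's shares in the last 2 counts were below both backgrounds. Over all 46 tested ABC probes both shares were 15.2%, above the 12.8% but below the 19.6% of all probes. Whether the family differs from the background was not tested.

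Most of the measured members had small differences. The median difference, fat-1 minus wild type, was -0.13 over the 26 genes and -0.059 over all probes tested, and 22 of the 26 lay within 0.5 of 0 on the log2 scale. The median size of the difference without regard to sign was 0.22 for the ABC genes and 0.30 for all probes. Differences were below 0 in 18 of 26 genes, or 69.2%, against 55.4% of all probes and 58.1% of the brightest probes of named genes. After normexp background correction 21 of 26 were below 0, and no share of all probes is given for that setting. The standard errors ran from 0.20 to 0.44, so the 95% intervals, such as -0.73 to 0.32 for ABCA7, leave room for moderate changes in either direction. Fewer cells of a type and less RNA per cell cannot be told apart in whole blood. By subfamily the medians were -0.069 for 5 ABCA, -0.10 for 4 ABCB, -0.12 for 7 ABCC, -0.11 for 3 ABCD, -0.22 for 3 ABCF and -0.33 for 3 ABCG genes, and ABCE1 had 0.55.

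The counts depended on single animals. Without wild type replicate 3 the groups did not overlap in 10 of the 26 genes and 5 had an unadjusted p under 0.05, while 0 had an adjusted p under 0.05. Of all probes tested, 47.7% did not overlap and 23.3% had an unadjusted p under 0.05 in that comparison of 3 against 2 animals. In 16 of the 26 genes this animal lay nearest of the wild type animals to the fat-1 mean, which it did for 55.7% of all probes tested. ABCC5, ABCD3, ABCE1 and ABCG4 were among the 5. Genes without overlap numbered 4 when either fat-1 replicate 1 or fat-1 replicate 2 was left out, 6 when fat-1 replicate 3 was, and 3 when wild type replicate 1 was, with 24.4% to 33.4% of all probes apart in these 4 comparisons. At an unadjusted p under 0.05, 1 gene was left when fat-1 replicate 2, wild type replicate 1 or wild type replicate 2 was dropped, beside 7.56% to 8.75% of all probes. The SD was larger among wild type than among fat-1 animals in 19 of 26 genes, against 61.8% of all probes.

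**Figure D2:**
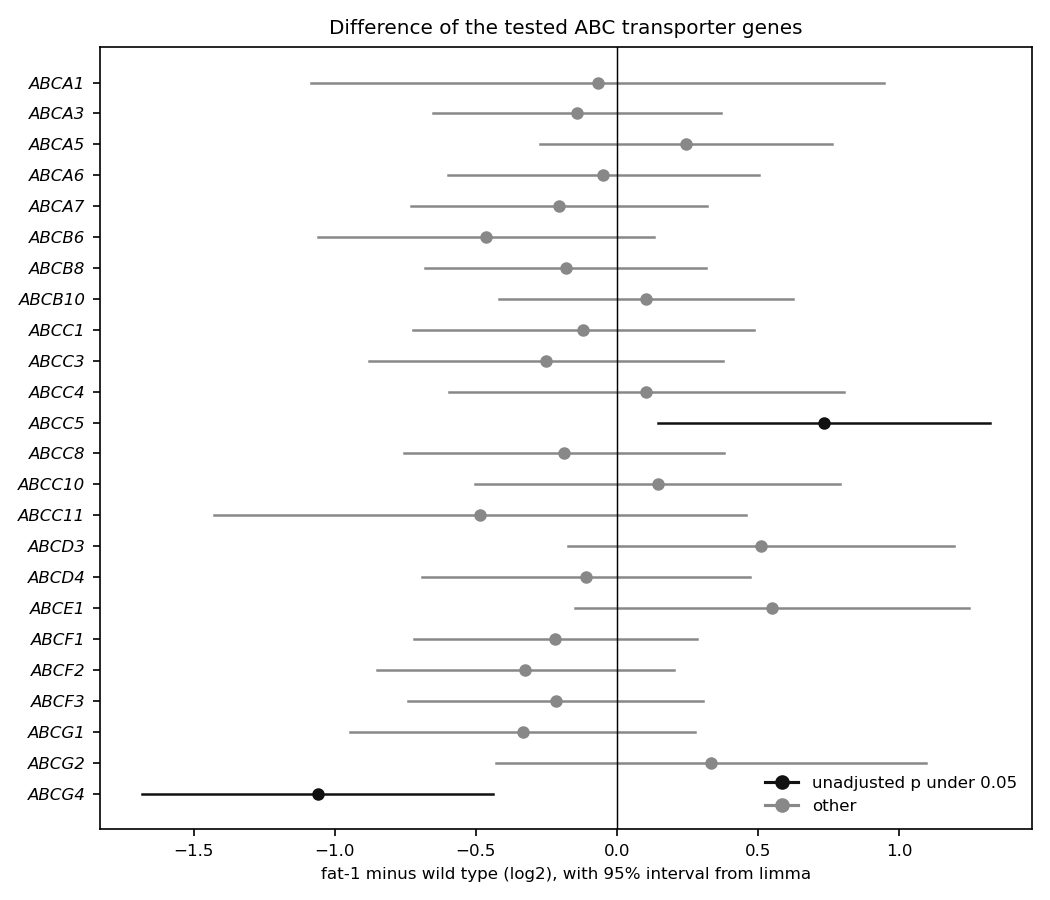
Difference between fat-1 and wild type animals (log2, 3 animals per group) for 24 of the 26 tested ABC transporter genes, with the 95% interval from limma. Black marks the 2 genes with an unadjusted p under 0.05, ABCG4 at -1.06 and ABCC5 at 0.73, and the intervals of the other 22 include 0.

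The sterol and phospholipid pumps held the tested gene with the largest difference. ABCG4, a close relative of the cholesterol exporter ABCG1, had a dim probe at chr15:28294935-28294994 on the plus strand of the bovine build Btau_3.1. The first 30 of its 60 bases are shown because they identify the sequence behind that difference.
ABCG4 probe: cattcaaactcctgtccatgtcctgctacc
The fat-1 animals lay at -5.20, -4.44 and -4.69 and the wild type animals at -4.02, -3.41 and -3.72. All 3 fat-1 animals were thus below all 3 wild type animals. The probe was well above background in 2 of 3 fat-1 and 3 of 3 wild type animals. The difference was -1.06 ± 0.27 (SE, n = 3 per group), a 2.09-fold lower signal, with an unadjusted p of 0.00411 and an adjusted p of 0.215 in limma. Leaving out 1 animal at a time gave -1.23 to -0.85. The difference was smaller with normexp background correction (-0.71) and with array weights (-0.76). Gamma-delta T cell markers, all 7 of them tested, had differences below 0 as well, with a mean level of -0.82 to 0.64 against 1.04 to 1.47. That list was chosen with earlier results of these data known, and its part in the ABCG4 difference was not tested.

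ABCG1, which passes cholesterol to high-density lipoprotein, was measured by 2 probes. At the first, chr1:145416246-145416305 (+), the fat-1 animals had -0.01, 0.40 and 0.81 and the wild type animals 1.00, 0.69 and 0.51. The groups overlapped there, with a difference of -0.33 ± 0.27 and an adjusted p of 0.553. The second probe, at chr1:145412841-145412900 (+), lies upstream of the first on the transcribed strand, and the pair is shown because their differences were unequal in size. The first 30 bases of the first probe and the whole of the second read as follows.
ABCG1 first probe: taacctggaatcagggtctccgagtgaatc
ABCG1 second probe: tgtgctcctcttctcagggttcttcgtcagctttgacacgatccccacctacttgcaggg
At the second probe the fat-1 animals had -3.45, -3.64 and -4.42 and the wild type animals -3.02, -2.85 and -3.38. Here every fat-1 animal was below every wild type animal, with a difference of -0.75 ± 0.30, an unadjusted p of 0.0345 and an adjusted p of 0.372 in limma. Without fat-1 replicate 3 it was -0.46, with an unadjusted p of 0.129, and it also lost an unadjusted p under 0.05 without wild type replicate 1 (0.0803) or wild type replicate 2 (0.0964). Whether the probes of ABCG1 differ from each other in their response was not tested.

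ABCA1, the pump that starts cholesterol loading onto apolipoprotein A-I, was near the detection limit. Its levels were -4.44, -4.55 and -6.12 in fat-1 and -5.37, -4.68 and -4.85 in wild type animals, and it was well above background in 2 of 3 and 1 of 3 of them. The low value of fat-1 replicate 3 set the mean: the difference was -0.07 ± 0.44, 0.47 without that animal and 0.075 without wild type replicate 2. ABCA7, a phospholipid transporter linked to phagocytosis, had 2.61, 2.46 and 2.18 in fat-1 and 2.59, 2.89 and 2.40 in wild type animals. Its difference of -0.21 ± 0.23 was smaller than the range within either group. The lysosomal transporter ABCA5 had -1.65, -1.72 and -2.13 against -2.29, -2.02 and -1.93, a difference of 0.24 ± 0.23 with overlapping groups that became -0.018 after normexp background correction. ABCA3, the lamellar body phospholipid transporter, and ABCA6 had 2 tested probes each, with differences from -0.15 to -0.05.

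ABCA4, the retinoid transporter of the photoreceptor, was the one member whose brightest probe was seen above background in one group alone. It was well above background in 2 of 3 fat-1 and in 0 of 3 wild type animals, at -4.45, -3.22 and -4.51 against -6.32, -4.92 and -6.38. Wild type values below the lowest signal well above background on their array were set to that signal. The signal of ABCA4 was then 2.42-fold higher in fat-1. This is not a strict lower bound, since the limit of a single probe can be higher. The fat-1 mean also included an animal in which the probe was not well above background. The gene was outside the filter, and in the fit without a filter its unadjusted p was 0.00672 and its adjusted p 0.379. Its second probe was well above background on no array.

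Of the 20 genes listed as partners in sterol efflux and liver X receptor control, 19 were tested, and 0 passed the adjusted threshold, beside the background of 0.171%. At an unadjusted p under 0.05, 1 was higher and 2 were lower, against 6.11% and 6.71% of all probes. The oxysterol-binding protein OSBPL1A had 1.24, 0.98 and 1.35 in fat-1 and 0.64, 0.75 and 0.42 in wild type animals, a difference of 0.58 ± 0.21. The sterol-sensing transcription factor SREBF2 had 5.52, 5.32 and 5.48 against 5.99, 6.30 and 5.80, a difference of -0.59 ± 0.22. In both genes the groups did not overlap. The third was MYLIP, the ligase that degrades the LDL receptor, at -0.54 ± 0.20, named after its values were seen. The list's median was -0.10, and the liver X receptors NR1H2 and NR1H3, named after their values were seen, had -0.10 and -0.26.

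**Figure D3:**
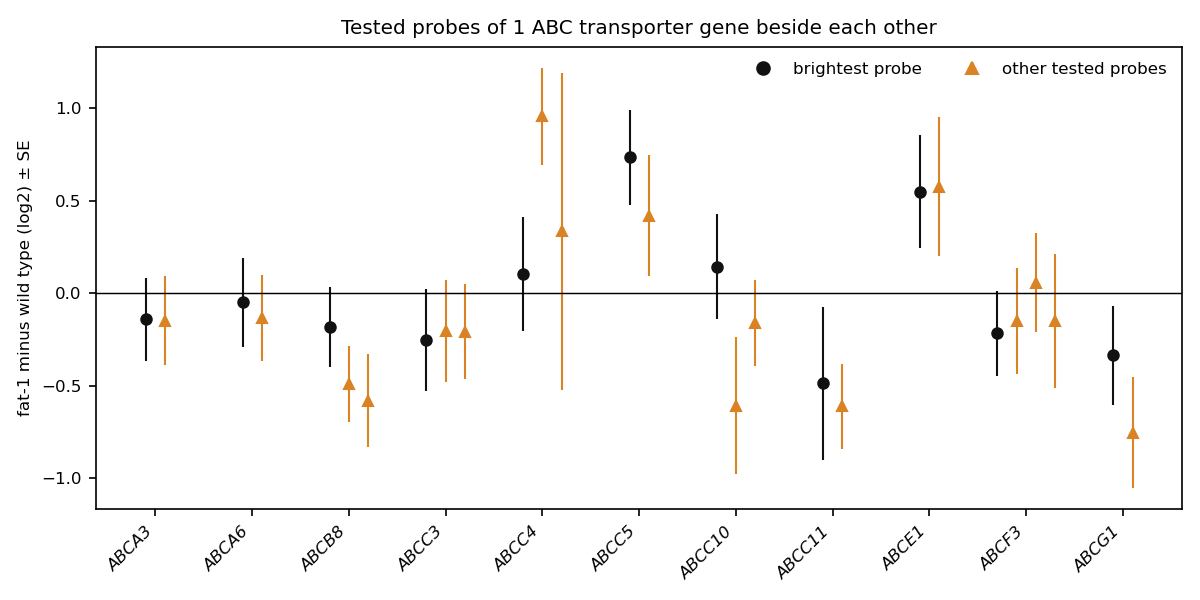
Difference between fat-1 and wild type animals (log2, with SE, n = 3 per group) for 11 of the 13 ABC transporter genes with at least 2 tested probes, the brightest probe of a gene in black and the others as orange triangles. In 9 of the 11 genes all probes lie on one side of 0, and ABCC4 and ABCC10 have the widest ranges.

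Among the exporters of conjugates and signalling lipids, ABCC5 was the second tested gene whose groups did not overlap. ABCC5 exports cyclic nucleotides and other organic anions. Its brightest probe, at chr1:85085986-85086045 (+), starts with the bases below, which are shown to identify it among the gene's 3 probes.
ABCC5 first probe: aatctgattggtggggatctcttaggatct
The fat-1 animals had -2.28, -2.33 and -2.40 and the wild type animals -3.42, -3.22 and -2.59. The fat-1 values were close together, and wild type replicate 3 came nearest to them. The difference was 0.73 ± 0.26, a 1.66-fold higher signal, with an unadjusted p of 0.0201 and an adjusted p of 0.343 in limma. It was 0.18 after normexp background correction, and 0.56 to 0.98 with 1 animal left out, with an unadjusted p of 0.00229 to 0.095. Its adjusted p was 0.0298 with array weights, the one setting tried in which an ABC transporter gene passed, in a fit that called 2014 of all probes.

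The second ABCC5 probe had -3.91, -3.96 and -4.12 in fat-1 and -5.13, -4.30 and -3.82 in wild type animals. There wild type replicate 3 was above the fat-1 animals, and the difference was 0.42 ± 0.33. The third probe was well above background on no array. Platelet markers, of which 5 of 10 were tested and 5 had no probe, were all above 0 as well, with a mean level of 2.50 to 3.17 in fat-1 and 2.08 to 2.61 in wild type animals, and their part in the ABCC5 difference was not tested.

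ABCC4, which exports prostaglandins, cyclic nucleotides and drugs and sits in platelet granules, had differences of unequal size from probe to probe. Whether its probes differ from each other was not tested. The brightest probe had -2.01, -2.07 and -2.91 in fat-1 and -2.46, -2.09 and -2.75 in wild type animals. Its groups overlapped, with a difference of 0.10 ± 0.31 that was -0.14 after normexp background correction. The second probe, at chr12:68783897-68783956 (-), had -2.06, -2.12 and -2.53 in fat-1 and -2.78, -3.53 and -3.27 in wild type animals. Every fat-1 animal was above every wild type animal there. The second probe's difference was 0.96 ± 0.26, a 1.94-fold higher signal with an unadjusted p of 0.00599 and an adjusted p of 0.248 in limma, and 0.37 after normexp background correction. The third probe had the largest SE of the 46 tested probes of the family, with 0.34 ± 0.86, since the wild type animals had -4.58, -6.52 and -2.50.

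The second ABCC4 probe is nearly identical to probes of other transcripts on the array, so the sequences are set beside each other. The copy probes carry other transcript names and are outside the rule. Capitals mark the bases of each copy probe that differ from the ABCC4 probe in the aligned stretch.
ABCC4 second probe: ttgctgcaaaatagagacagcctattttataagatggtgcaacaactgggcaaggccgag
Copy probe 1: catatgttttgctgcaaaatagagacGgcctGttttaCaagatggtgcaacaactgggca
Copy probe 2: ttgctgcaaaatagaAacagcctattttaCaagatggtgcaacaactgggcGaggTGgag
Counting from 1 at the 5′ end of the ABCC4 probe, copy probe 1 has A19G, A24G and T30C over 52 aligned bases. Copy probe 2 has G16A, T30C, A52G, C56T and C57G over 60 aligned bases. The longest run shared with the ABCC4 probe is 22 bases in copy probe 1 and 21 in copy probe 2. Array position places copy probe 1 at chr12:68783905-68783964 (-), on top of the ABCC4 probe, and copy probe 2 at chr12:69917067-69917126 (-).

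The difference was 0.24 ± 0.24 for copy probe 1 and 1.23 ± 0.37 for copy probe 2, beside 0.96 ± 0.26 for the ABCC4 probe. Whether these values differ from each other was not tested. Copy probe 2 had -0.72, -0.65 and -1.55 in fat-1 and -2.06, -2.89 and -1.66 in wild type animals, so that its groups did not overlap, with an adjusted p of 0.284 in limma. Cross-hybridisation between these transcripts was not tested, and the values of the second ABCC4 probe are therefore uncertain as a measure of ABCC4 alone.

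Transcripts described as ABCC4-like had 15 probes outside the rule, copy probe 2 among them, with 10 placed on chromosome 12 and 5 with no position. Of the 15, 11 were tested, and 10 of these were well above background in animals of both groups. Differences of the 10 ran from -3.54 to 1.23, with 6 above and 4 below 0. At an unadjusted p under 0.05 there were 3 of 10, against 12.8% of all probes, and 1 had an adjusted p under 0.05, against 0.171%. That probe, of LOC528412, had -3.31, -2.62 and -3.76 in fat-1 and 0.63, 1.07 and -0.78 in wild type animals. Its difference was -3.54 ± 0.49 with an adjusted p of 0.0467 in limma, and the adjusted p was 0.00301 to 0.166 over 15 alternatives, 7 of them under 0.05. The remaining tested probe, of transcript ENSBTAT00000050444, was well above background in all fat-1 and in 0 of 3 wild type animals. It passed the filter through the fat-1 animals alone. Its signal was 2.93-fold higher in fat-1 when computed as for ABCA4, which is not a strict lower bound.

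**Figure D4:**
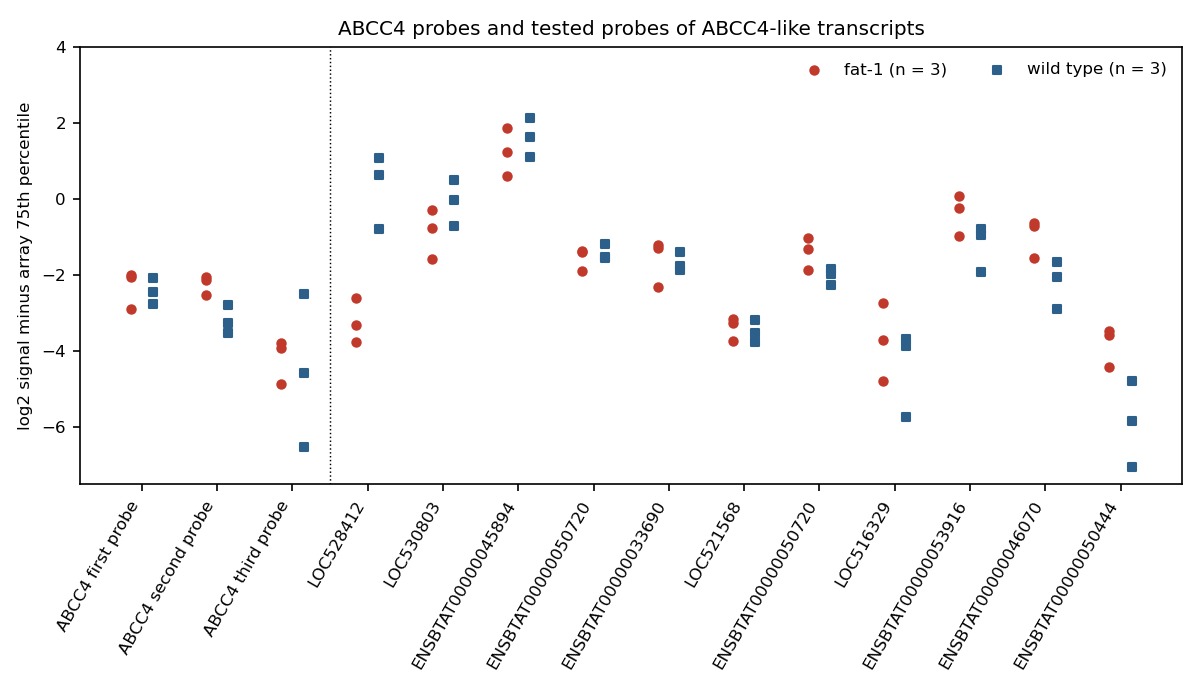
Level in every animal (log2 processed intensity minus the array's 75th percentile) of the 3 ABCC4 probes, left of the dotted line, and of the 11 tested probes of ABCC4-like transcripts, ordered by their difference from lowest to highest. The fat-1 animals of LOC528412 lie between -3.76 and -2.62, below the wild type animals, and the rightmost transcript was well above background in fat-1 animals alone.

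At the brightest probes of ABCC1, ABCC3 and ABCC10 the groups overlapped. ABCC1, the main exporter of leukotriene C4, had 1.43, 1.90 and 1.53 in fat-1 and 1.73, 2.14 and 1.35 in wild type animals, a difference of -0.12 ± 0.26 with an interval of -0.72 to 0.49. ABCC3, a pump of glucuronide conjugates, had 3 tested probes between -0.25 and -0.20. ABCC10 had 0.14 ± 0.28 at its first probe and -0.61 ± 0.37 at its second, where wild type replicate 2 was high at -0.065 and the other 5 animals lay between -1.65 and -0.84.

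ABCC11 is an apical exporter of lipophilic anions. At the first probe, named from its description alone, the fat-1 animals had -1.22, -2.11 and -2.89 and the wild type animals -1.34, -1.40 and -2.02. The spread within fat-1 was wide, and the difference of -0.49 ± 0.41, or -0.076 without fat-1 replicate 3, had an adjusted p of 0.573. The second probe, which lies at chr18:15788165-15788224 (-), has the sequence below and is shown because its groups were apart.
ABCC11 second probe: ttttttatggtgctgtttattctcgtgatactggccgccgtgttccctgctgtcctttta
It had -3.51, -3.37 and -3.20 in fat-1 and -2.95, -2.41 and -2.89 in wild type animals, a difference of -0.61 ± 0.23 with an unadjusted p of 0.0281 and an adjusted p of 0.359 in limma. With 1 animal left out the unadjusted p was 0.0303 to 0.0896. The 4 ABCC11 probes were placed from position 15642171 to 15926318 on chromosome 18, 1 of them on the other strand, and the 2 not named here were well above background on no array.

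Of the 12 genes listed as eicosanoid partners of the ABCC exporters, 6 were tested, 5 were too dim and 1 had no probe. None passed the adjusted threshold in limma, and 1 of 6 had an unadjusted p under 0.05, against 12.8% of all probes. LTC4S, the synthase that makes the leukotriene C4 which ABCC1 exports, had 3.61, 3.11 and 3.32 in fat-1 and 2.03, 0.69 and 3.05 in wild type animals. The groups did not overlap, and the difference was 1.42 ± 0.52 with an adjusted p of 0.354. Its helper ALOX5AP, which feeds arachidonic acid to 5-lipoxygenase, had 0.52 ± 0.24. ALOX5, the gene of that enzyme, was too dim to be tested.

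The ABCD transporters, most of them peroxisomal, lay on both sides of 0. ABCD3, which imports branched-chain and dicarboxylic acyl-CoA, had -1.93, -1.84 and -1.79 in fat-1 and -2.35, -2.95 and -1.79 in wild type animals. Wild type replicate 3 matched the fat-1 animals, and the difference was 0.51 ± 0.30 with an adjusted p of 0.454 in limma. The difference was 0.80 without wild type replicate 3, 0.22 without wild type replicate 2 and 0.10 after normexp background correction. ABCD4, which exports vitamin B12 from lysosomes, had 0.78, 1.33 and 1.06 against 1.07, 1.53 and 0.90, a difference of -0.11 ± 0.25. ABCD2, which favours polyunsaturated acyl-CoA, was well above background on no array at either of its 2 probes.

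Among 12 peroxisomal partner genes 11 were tested, with 5 above and 6 below 0 and a median of -0.035. In limma 0 of them had an adjusted p under 0.05 and 1 an unadjusted one, beside 12.8% of all probes. The carnitine transferase CROT had 0.55 ± 0.25. PEX19, the chaperone that delivers the ABCD proteins to the peroxisome, had -0.34 ± 0.22 and was named after its values were seen.

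The mitochondrial and haem-linked members showed no called difference. ABCB6, a porphyrin transporter, had -3.25, -3.49 and -3.59 in fat-1 and -3.31, -2.51 and -3.11 in wild type animals. The groups overlapped at fat-1 replicate 1, with a difference of -0.46 ± 0.26 and an adjusted p of 0.443. ABCB10, which supports haem synthesis in red cell precursors, had -0.15, -0.45 and -0.55 in fat-1 and -0.42, -0.76 and -0.28 in wild type animals, a difference of 0.10 ± 0.23. ABCG2, a pump for porphyrins and many drugs, had -4.58, -3.97 and -5.12 against -5.12, -4.45 and -5.10, a difference of 0.33 ± 0.33 that turned to -0.36 after normexp background correction.

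ABCB8, a transporter of the inner mitochondrial membrane, had 5 probes along chromosome 4, and 3 of them were tested. The brightest, at chr4:117901428-117901487 (+), had a difference of -0.18 ± 0.22. The second, whose match spans chr4:117891541-117891981 in the genome, had -1.60, -1.77 and -1.81 in fat-1 and -1.24, -1.08 and -1.40 in wild type animals. The third, spanning chr4:117890251-117891023, had -2.94, -3.54 and -2.99 against -2.59, -2.31 and -2.82. In both the groups did not overlap, with differences of -0.49 ± 0.20 and -0.58 ± 0.25 and adjusted p of 0.380 and 0.388 in limma. With 1 animal left out the unadjusted p was 0.0317 to 0.116 for the second and 0.0335 to 0.189 for the third.
ABCB8 probe 2: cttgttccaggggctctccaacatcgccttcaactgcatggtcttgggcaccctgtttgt
ABCB8 probe 3: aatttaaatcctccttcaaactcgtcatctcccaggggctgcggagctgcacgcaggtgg
Probes 4 and 5 overlap by 52 bases with an offset of 8, and are shown because they differ in sequence. Capitals mark the 2 mismatches.
ABCB8 probe 4: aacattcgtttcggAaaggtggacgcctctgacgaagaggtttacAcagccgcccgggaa
ABCB8 probe 5: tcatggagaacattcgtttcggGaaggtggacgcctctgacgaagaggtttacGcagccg
Counted from 1 at the 5′ end of probe 5, probe 4 has G23A and G54A. Probe 4 was well above background on 1 array and probe 5 on none.

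Haem synthesis and iron-sulfur partners numbered 17, of which 16 were tested and 0 had an adjusted p under 0.05 in limma, with 1 lower at an unadjusted p under 0.05, beside 6.71% of all probes. ALAD, the second enzyme of haem synthesis, had 1.40, 2.21 and 1.82 in fat-1 and 2.56, 3.44 and 2.80 in wild type animals. The groups did not overlap, and the difference was -1.12 ± 0.31 with an adjusted p of 0.248. The transferrin receptor TFRC had 0.79 ± 0.38. Red cell markers lay on both sides of 0, with 4 above and 4 below among the 8 tested, ALAS2 among them as a member of both lists. Their mean level was 1.17 to 1.60 in fat-1 and 0.52 to 2.13 in wild type animals, and their part in the haem-linked values was not tested.

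Among the ribosome-bound members, ABCE1 lay above 0 and the 3 ABCF genes below 0 by the brightest probe, with no called difference. ABCE1, which splits ribosomes after termination, had -1.17, -1.50 and -1.32 in fat-1 and -2.13, -2.29 and -1.21 in wild type animals. Wild type replicates 1 and 2 were low and wild type replicate 3 lay with the fat-1 animals. The difference was 0.55 ± 0.31 at this probe and 0.57 ± 0.38 at the second, with adjusted p of 0.441 and 0.485. Without wild type replicate 3 it was 0.88 at the first, with an unadjusted p of 0.00517 and an adjusted p of 0.110. Without wild type replicate 2 it was 0.34, and after normexp background correction 0.23.

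ABCF1, which binds the initiation factor eIF2, had 3.81, 3.65 and 3.90 in fat-1 and 4.22, 4.08 and 3.73 in wild type animals, a difference of -0.22 ± 0.22. ABCF2 had 2.66, 2.72 and 2.69 against 3.04, 3.33 and 2.67, so that its fat-1 SD of 0.031 was the smallest within any group, and wild type replicate 3 lay among the fat-1 animals. The ABCF2 difference was -0.32 ± 0.23. ABCF3 had 4 tested probes with differences from -0.22 to 0.06. The adjusted p of the 3 ABCF genes was 0.512 to 0.641.

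Of 11 ribosome partners 9 were tested, with 7 above and 2 below 0 and a median of 0.27, while 0 had an unadjusted p under 0.05 in limma, beside the background of 12.8%. EIF5B, the factor that joins the ribosomal subunits, had 1.64, 1.79 and 1.90 in fat-1 and 1.32, 1.31 and 1.57 in wild type animals, and the groups did not overlap, with 0.38 ± 0.20. HBS1L, which rescues stalled ribosomes together with PELO before ABCE1 acts, had 0.51, 0.50 and 0.35 against -0.31, -0.65 and 0.62. Wild type replicate 3 was again the high one of its group, and the difference was 0.56 ± 0.32. PELO itself, named after its values were seen, had 0.06 ± 0.21.

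ABCC8, the sulfonylurea receptor that regulates the ATP-sensitive potassium channel, had 1 bright probe beside 3 dark ones. The bright probe was well above background on all 6 arrays, with a difference of -0.19 ± 0.25. The other 3 were well above background on no array. One of these, at chr15:33833196-33833255 (+), ends 2 bases before the bright one starts at chr15:33833258-33833317 (+). The last 30 bases of the dark probe and the first 30 of the bright probe are given because they lie next to each other, with runs of at least 4 C in capitals.
ABCC8 dark probe, bases 31 to 60: tgtccgtgctgacaagtgacctatcacagc
ABCC8 bright probe, bases 1 to 30: aagtgccatccctgCCCCaCCCCCCtgcct
The stretch of the bright probe holds 17 C. A run of at least 6 C, on the printed strand, was present in 240 of the probes tested, or 0.895% of them. What the bright probe measures was not tested, and it is uncertain as a measure of ABCC8. The pore subunits KCNJ8 and KCNJ11, the whole list of channel partners, had -0.41 ± 0.22 and -0.53 ± 0.36.

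TAP1 and TAP2, which carry peptides to MHC class I and belong to the ABCB subfamily under other symbols, were listed as relatives outside the rule, with the chloride channel CFTR. TAP2 had 3.22, 3.42 and 3.49 in fat-1 and 4.16, 4.51 and 3.86 in wild type animals, with no overlap. Its difference was -0.80 ± 0.23, with an unadjusted p of 0.00853 and an adjusted p of 0.274 in limma. TAP1 had -0.28 ± 0.24, and CFTR was well above background on no array.

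**Figure D5:**
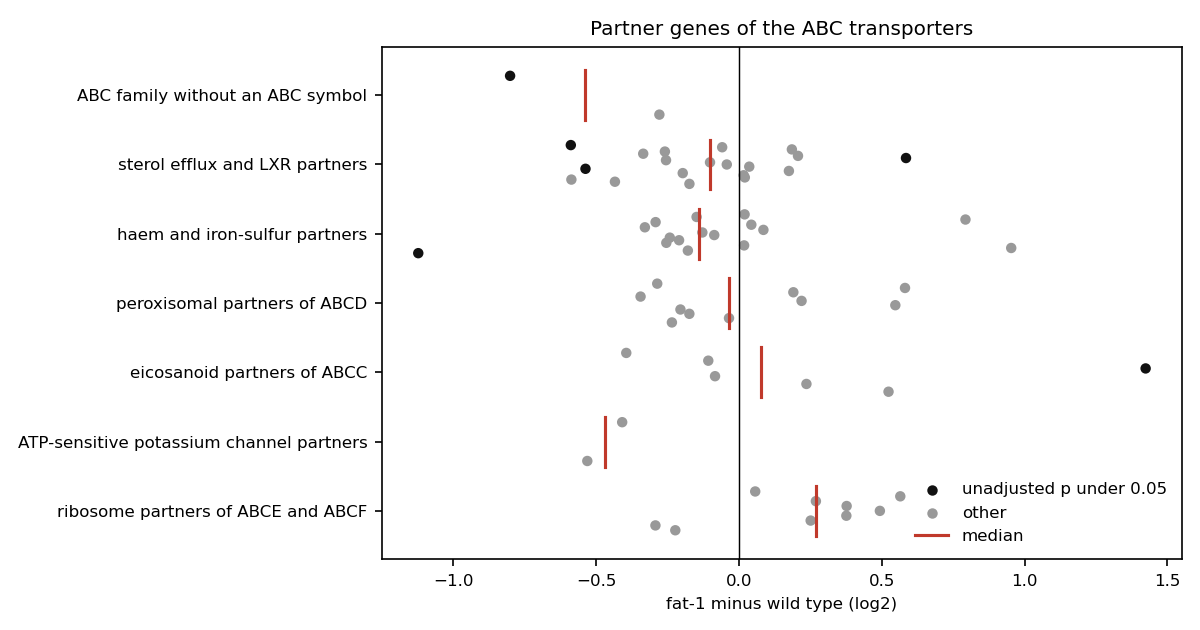
Difference between fat-1 and wild type animals (log2) of 64 of the 65 tested partner genes in 7 lists, with black points for an unadjusted p under 0.05 and a red line at the median of each list's tested genes. None of the 65 had an adjusted p under 0.05, and the medians run from -0.54 to 0.27.

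Of the 36 genes 22 had several probes, and the chosen one was often the one nearest the 3′ end. In 21 genes at least 2 probes were placed, all on the same strand, and in 15 of these that was so. ABCC11, with a probe on the other strand, was left out of this count. Of the 21 probes nearest the 3′ end, 14 were well above background on all 6 arrays, and of the 33 others 18 were, with 12 on no array. Over all 46 tested probes of the family, 7 had an unadjusted p under 0.05, 2 higher and 5 lower, or 15.2% against the background of 12.8%, and none an adjusted p under 0.05. These 7 were the ABCG4 and first ABCC5 probes and the other probes of ABCG1, ABCC4, ABCB8 and ABCC11 given above.

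Levels of blood cell markers were compared between the groups as well. The differences of the 7 gamma-delta T cell markers ran from -1.52 to -0.53, 5 of 7 at an unadjusted p under 0.05, against 6.71% of all probes lower at that threshold, and 0 at an adjusted one in limma. The marker lists were chosen with earlier results of these data known, so this count is a description and not independent evidence. In the other 8 lists the mean levels of the groups overlapped. The part of these cells in the ABCG4 and TAP2 differences, also lower in fat-1, was not tested. Monocyte markers were above 0 in 8 of 10, with mean levels of 3.48 to 4.05 and 3.40 to 3.84. T cell markers were below 0 in 9 of 10, with mean levels of 2.46 to 3.07 and 2.76 to 3.38. Neutrophil, B cell, and natural killer and cytotoxic cell markers lay on both sides of 0, and of 10 eosinophil and mast cell markers 3 were tested. The 75th percentile of intensity was 613 to 1067 and 58.4% to 63.5% of spots were well above background per array.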

How the data were processed

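Per the file headers and the submitters' processing notes, spot intensity came from Agilent Feature Extraction 10.7.1.1, background-subtracted and detrended within each array, with a surrogate for the dimmest spots, and the deposited processed intensity was not scaled between arrays. The authors' deposited value table holds log2 values with one distribution for all columns (method not given in the sources used here). Flags of 0 or 1 mark spots well above background. Positions follow the build in the file headers, Btau_3.1, and sequences are the array's own probes.

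Each array's 75th percentile was subtracted from its log2 processed intensity, and 32 probes with outlier flags were dropped. limma 3.58.1 in R 4.3.3 (lmFit, eBayes, a single term for group) was run on the 26826 probes well above background in 3 or more animals, and p-values were adjusted by the Benjamini-Hochberg method across these. The threshold was an adjusted p of 0.05, and each p given is from this fit unless a setting is named. The fit was tested on simulated data. Wild type replicate 2's file held rounded values and 56 altered gene names, which were replaced by those of another array. Some genes counted in the totals are not reported here by name. The number of arrays limits the precision.

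Members named with all values were those past the threshold, the 10 with the smallest unadjusted p, those with groups apart by at least 1 log2 and a fixed list of lipid, eicosanoid, peroxisomal, haem and ribosome members. Of each partner list, genes past the threshold or else the 2 with the smallest unadjusted p were named. Further probes, ABCC4-like probes and other genes were chosen after their values were seen. The members and lists were chosen with earlier results of these data known. Alternatives changed the background correction, scaling, filter, choice of probe, variance model and source of values, added a replicate block or left out each animal.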

Additional observations from a re-analysis of the deposited data

How the results depend on the processing

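Of the 22 differences followed (17 genes and 5 further probes), 15 kept their sign in all 16 alternatives in which they could be fitted. After normexp background correction the sign turned for ABCA5 (-0.018), ABCC4 (-0.14) and ABCG2 (-0.36), and with array weights for ABCA1 (0.31) and ABCD4 (0.014). Leaving out 1 animal gave -0.37 to 0.47 for ABCA1, -0.036 to 0.21 for ABCB10, -0.31 to 0.080 for ABCC1, -0.056 to 0.39 for ABCC4 and -0.25 to 0.071 for ABCD4. The count of ABC genes at an adjusted p under 0.05 was 0 in every alternative except array weights, with 1. The count at an unadjusted p under 0.05 was 8 with array weights, 1 with probes well above background on all arrays, and 1 to 5 with an animal left out. Genes without overlap numbered 2 to 10 with an animal left out. With probes well above background on all arrays there was 1 among the 23 genes fitted, and ABCG4 did not pass that filter. No share of all probes is given for that setting. Over all probes the adjusted count of 46 became 116 with normexp, 124 with median scaling, 126 with an intensity trend, 16 with quantile scaling and 16 with the authors' value table. It was 14 without a filter, 2014 with array weights and 8 to 55 with an animal left out. The unadjusted count of 3440 became 8826 with array weights and 2027 to 6263 with an animal left out. Partner genes at an unadjusted p under 0.05, 7 in the analysis reported, numbered 11 with an intensity trend, 25 with array weights and 3 to 13 with an animal left out. With the replicate number as a block 105 probes and 0 ABC genes had an adjusted p under 0.05, and 12 partner genes an unadjusted one. The same-numbered animals' deviations correlated at 0.117, 0.185 and 0.0058, so the numbers were not taken as pairs. The causes were not tested. The median difference of the ABC genes stayed within 1 SD between animals (0.16) in all alternatives. Limits were the 3 animals per group, the dim probes of ABCA1, ABCG2 and ABCG4, and probes whose sequence other transcripts share. The size of the ABCC5 difference depended on the background correction.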
